A study of Rattus norvegicus with 15 samples.

Results

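The tumour necrosis factor (TNF) superfamily of ligands and receptors was represented by 34 of the 22468 genes in the deposited table of rat bone RNA sequencing. The genes were chosen by symbol: Tnf, Lta, Ltb, Ltbr, Fas, Faslg, Cd40, Cd40lg, Cd27, Cd70 and every numbered Tnfsf or Tnfrsf gene except Tnfsf11, Tnfrsf11a, Tnfrsf11b and Tnfrsf17. They comprised 16 ligands and 18 receptors, of which 4 receptors (Fas, Tnfrsf1a, Tnfrsf21 and Tnfrsf25) carry a cytoplasmic death domain. The study took bone from female Sprague-Dawley rats in 5 groups of 3 libraries. SYT, YJT and YJZYT rats were all ovariectomized and are known here only by these condition labels. Model rats were ovariectomized and labelled as osteoporotic, and Blank rats had no treatment. Ovariectomy removes the main source of oestrogen, and the title of the study names Zhuanggu Zhitong Capsule, a Chinese herbal preparation, without the labels saying which group received it. The labels name neither the age of the rats, nor the bone sampled, nor a sham operation in Blank rats, and do not tie replicates to different animals. The p-values can therefore speak only to the variation among these libraries, which may be technical.

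Ligands of this superfamily are trimeric proteins made on the cell surface, from which some are cut free, and they signal by clustering receptors on neighbouring cells. Receptors with a death domain can recruit adaptors that start cell death, and most of the others bind TRAF adaptors that activate NF-kappaB transcription factors. In marrow and bone the family is known for controlling B cell survival (the ligands BAFF and APRIL and their receptors), T cell costimulation, lymphoid organisation through lymphotoxin, and the stimulation of bone resorption by TNF.

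The libraries held 64472700 to 74255667 counts each, and 17657 genes passed the filter on low counts and were tested with edgeR. Of the 34 superfamily genes, 32 were tested, and Lta and Cd70 were left out by the filter. Comparisons between groups use TMM-scaled counts relative to library size (CPM), and comparisons of level between genes use the authors' FPKM values, which also take transcript length into account. All 11 osteoblast and osteocyte markers in the table were detected in every library, but their summed level ran from 2800 to 25500 CPM in YJT, from 3150 to 33500 in YJZYT, from 13400 to 79400 in SYT, from 21400 to 53700 in Model and from 13100 to 38100 in Blank. YJT3 and YJZYT3 gave the lowest share of counts to Col1a1, the main collagen chain of bone, at 0.228% and 0.226%, and SYT3 the highest at 7.1%. SYT3 also stood apart in its neutrophil markers, with a list score (median log2 CPM deviation from the mean of all libraries) of -2.20, while the other 14 libraries lay between -0.50 and 0.82. Skeletal muscle markers summed to 518 to 3340 CPM in SYT, 2630 to 2950 in YJT, 31.7 to 724 in YJZYT, 244 to 770 in Model and 3990 to 6580 in Blank. In bulk bone, fewer cells of a type and less RNA per cell cannot be told apart.

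The genes of the lymphotoxin and TNF locus illustrate how unequally neighbouring ligands of the family were represented. In the coordinates of the deposited table, Lta lay on chromosome 20 at 4852496 to 4854677 and Tnf at 4855829 to 4858447, both on the plus strand and 1.151 kb apart. Ltb lay 2.887 kb beyond Tnf, at 4861335 to 4863198 on the minus strand. Lta encodes lymphotoxin alpha, Ltb the membrane chain with which it forms the lymphotoxin heterotrimer, and Tnf the inflammatory cytokine itself. Median levels over the 15 libraries were 0.0323 FPKM for Lta, 0.103 FPKM for Tnf and 11 FPKM for Ltb. The promoter sequences below are shown because these genes share a locus, are textbook NF-kappaB targets and yet differed in level. They come from RefSeq in build GRCr8, whose coordinates differ from those of the table, and run 5′ to 3′ from 250 bases before to 50 bases after the annotated start. Capitals mark matches to the kappaB motif GGGNNNNNCC on either strand, with overlapping matches joined into a run. The Lta promoter lies at chr20:3623277-3623576 on the plus strand, the Tnf promoter at chr20:3626435-3626734 on the plus strand and the Ltb promoter at chr20:3634005-3634304 on the minus strand.
Lta: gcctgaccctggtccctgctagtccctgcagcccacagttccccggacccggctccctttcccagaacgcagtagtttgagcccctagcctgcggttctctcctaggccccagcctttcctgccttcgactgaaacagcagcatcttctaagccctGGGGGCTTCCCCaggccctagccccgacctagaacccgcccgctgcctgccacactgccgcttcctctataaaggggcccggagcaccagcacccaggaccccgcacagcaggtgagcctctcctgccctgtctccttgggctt
Tnf: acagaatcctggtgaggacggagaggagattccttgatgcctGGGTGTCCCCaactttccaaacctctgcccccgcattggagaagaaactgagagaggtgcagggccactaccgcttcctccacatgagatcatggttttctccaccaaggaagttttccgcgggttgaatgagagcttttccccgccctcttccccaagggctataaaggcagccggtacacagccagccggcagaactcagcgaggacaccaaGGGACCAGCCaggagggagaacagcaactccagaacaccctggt
Ltb: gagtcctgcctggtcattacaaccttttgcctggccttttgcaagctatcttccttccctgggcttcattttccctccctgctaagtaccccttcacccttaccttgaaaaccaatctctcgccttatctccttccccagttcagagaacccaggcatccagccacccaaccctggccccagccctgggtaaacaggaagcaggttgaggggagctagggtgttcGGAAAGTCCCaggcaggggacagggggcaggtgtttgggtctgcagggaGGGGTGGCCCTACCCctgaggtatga

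Lta had 5 overlapping matches in 1 run, starting at -94 to -92 relative to the start, and Tnf had 3 matches in 2 runs. Ltb had 4 matches in 2 runs, 1 of them upstream of the start and 1 downstream. Promoter sequences were found for 27 of the 34 genes, and 17 of these (63.0%) held the motif, against 47.3% of all 33469 promoters of 300 bases. A match is a run of letters and not a measured binding site, so these shares are a description only. In the table, the 3 locus genes also lay within the longer spans of the class I histocompatibility entries RT1-CE7, RT1-CE4 and RT1-CE1, which averaged 15.4, 16.6 and 10.4 FPKM and run on the same strand as Ltb and the opposite strand to Lta and Tnf. No source used here gives the strand setting of the counting, so reads from these entries and the locus genes cannot be told apart.

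Some family members lay close together on a chromosome, and no share over all genes was computed to set beside this. The 34 genes lay on 13 chromosomes, and 19 of them formed 11 neighbouring pairs less than 300 kb apart. Tnfsf13 and Tnfsf12, which encode APRIL and TWEAK, were 0.827 kb apart on chromosome 10. Tnfrsf4 and Tnfrsf18, which encode the T cell costimulators OX40 and GITR, were 9.879 kb apart on chromosome 5. Ltbr, the lymphotoxin beta receptor, lay 35.727 kb from Tnfrsf1a, the main TNF receptor, on chromosome 4.

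Of the 34 genes, 7 had a median level of at least 10 FPKM, 12 lay between 1 and 10 FPKM and 15 lay under 1 FPKM. Receptors were the better represented side of the family: 14 of 18 receptors reached a median of 1 FPKM, against 5 of 16 ligands. The median of the receptors' medians was 4.41 FPKM and that of the ligands 0.302 FPKM. Over the family 55.9% of genes had a median of at least 1 FPKM, beside 57.8% of all genes in the table.

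**Figure D1:**
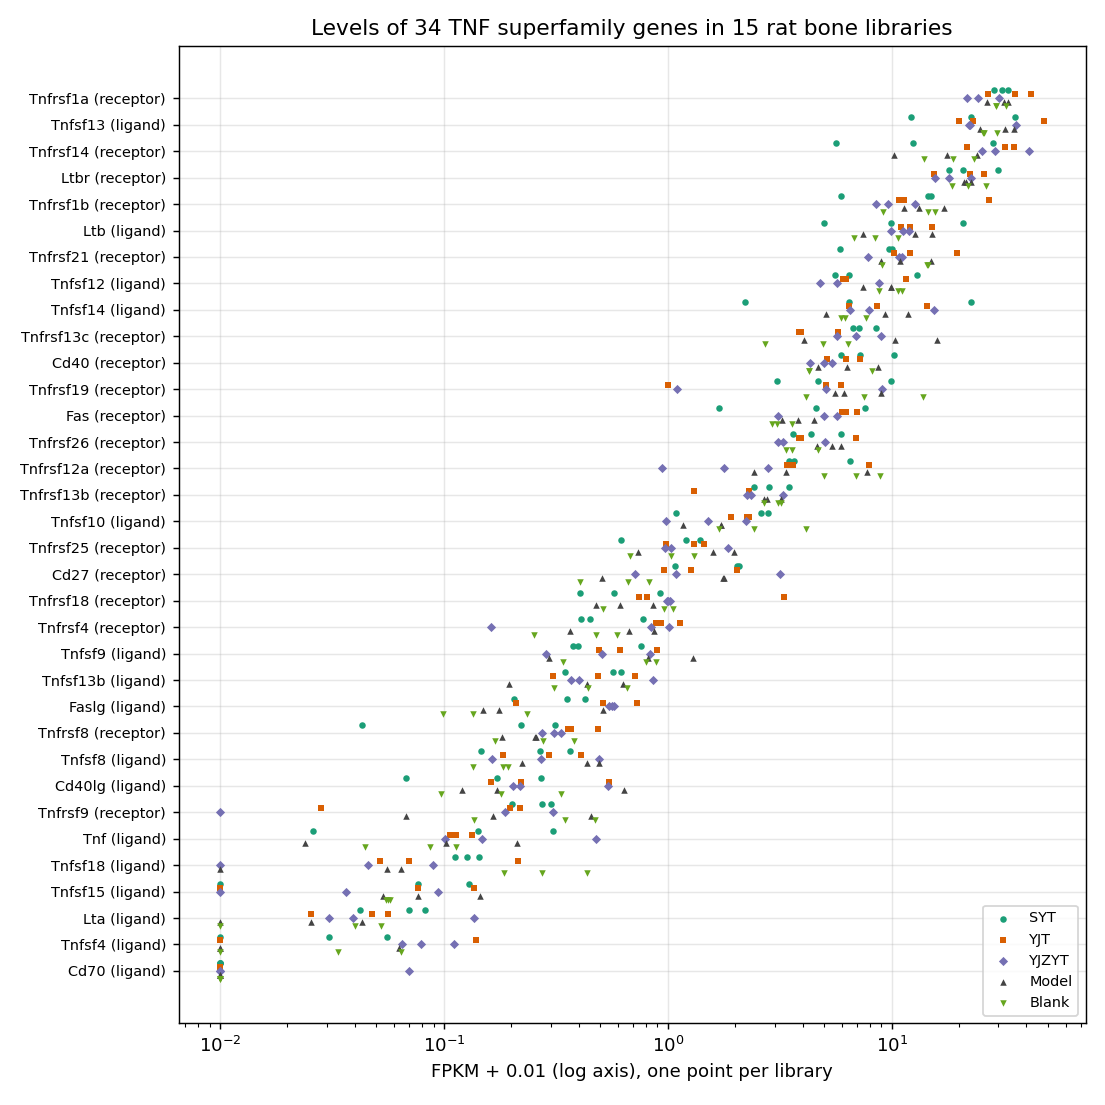
Level of the 34 superfamily genes in FPKM, 1 point per library coloured by group, with genes in order of their median from top to bottom. The log axis has a small constant added, so values of 0 stand at its left end. Receptors such as Tnfrsf1a lie near 30.1 FPKM at the median, whereas Tnf, the ligand of Tnfrsf1a, lies near 0.103 FPKM.

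Among the ligands, Tnfsf13, which encodes the B and plasma cell survival factor APRIL, was highest with a median of 25.6 FPKM and a range from 12.2 in SYT3 to 48.1 in YJT3. Ltb followed at 11 FPKM, from 4.98 in SYT3 to 20.7 in SYT1. Tnfsf12, which encodes TWEAK, the ligand of Tnfrsf12a, had a median of 8.74 FPKM. Tnfsf14, which encodes LIGHT, the ligand of Tnfrsf14 and Ltbr, had a median of 7.67 FPKM and the largest ratio of highest to lowest library among these 4, with 2.21 in SYT3 and 22.7 in SYT1. Tnfsf10, which encodes the death ligand TRAIL, was the only other ligand with a median above 1 FPKM, at 1.9.

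The remaining ligands were scarce. Tnfsf9 (4-1BB ligand) had a median of 0.6 FPKM, Tnfsf13b (BAFF) 0.433, Faslg (Fas ligand) 0.346, Tnfsf8 (CD30 ligand) 0.258 and Cd40lg (CD40 ligand) 0.193. Tnf itself had 18, 39 and 3 counts in SYT, 14, 17 and 13 in YJT, 61, 13 and 18 in YJZYT, 26, 2 and 13 in Model and 5, 11 and 14 in Blank. Its groups overlapped throughout, and both its lowest and one of its higher values came from Model. Tnfsf18 (GITR ligand, median 0.0795 FPKM) had no count in 2 libraries, Tnfsf15 (0.0472 FPKM) in 3, Lta in 2 and Tnfsf4 (OX40 ligand, 0.0238 FPKM) in 6. Cd70, the ligand of Cd27, was at 0 in 14 libraries and had 4 counts in YJZYT1. A count of 0 in a library allows a level of up to 0.0404 to 0.0465 CPM (3 counts of the library total), for counting error only.

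Among the receptors with a death domain, Tnfrsf1a (TNF receptor 1) was the best represented and the steadiest, with a median of 30.1 FPKM and a range from 21.7 in YJZYT2 to 42.0 in YJT3. Tnfrsf21 (death receptor 6) had a median of 10.8 FPKM. Fas, the receptor of Fas ligand, had 4.48 FPKM, from 1.69 in SYT3 to 7.58 in SYT1. Tnfrsf25 (death receptor 3) had 1.2 FPKM.

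Of the receptors without a death domain, Tnfrsf14 (HVEM, the receptor of LIGHT) had 23.3 FPKM, from 5.62 in SYT3 to 41.0 in YJZYT3, and Ltbr 21.5 FPKM. Tnfrsf1b (TNF receptor 2) had 12.7 FPKM, from 5.94 in SYT3 to 27.2 in YJT3. The B cell receptors Tnfrsf13c (BAFF receptor), Cd40 and Tnfrsf13b (TACI) had 6.4, 5.96 and 2.69 FPKM. The BAFF receptor was thus far above its ligand Tnfsf13b, at 0.433 FPKM. Tnfrsf19 (TROY) had 5.57 FPKM with a range from 0.988 in YJT3 to 13.8 in Blank2, and Tnfrsf12a (Fn14, the receptor of TWEAK) 3.62 FPKM, from 0.935 in YJZYT3 to 8.86 in Blank2. Tnfrsf26 had 4.33 FPKM and the T cell receptor Cd27 1.08 FPKM. The costimulators Tnfrsf18, Tnfrsf4, Tnfrsf8 (CD30) and Tnfrsf9 (4-1BB) lay under 1 FPKM, at 0.851, 0.663, 0.267 and 0.192.

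The order of neighbours at the top was not fixed from library to library. Tnfrsf1a was above Tnfsf13 in 9 of 15 libraries, Tnfsf13 above Tnfrsf14 in 10, and Tnfrsf14 above Ltbr in 8. The first clear step was from Ltbr to Tnfrsf1b, which kept this order in 14 of 15 libraries, and the next from Tnfrsf21 to Tnfsf12, in 13. Ltb was above Tnfrsf21 in 5 libraries although its median was higher.

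The spread that edgeR assigned to each gene differed widely. The biological coefficient of variation (BCV, the spread between replicates beyond counting error) was 15.8% for Tnfrsf1a, 20.6% for Ltbr and 25.4% for Tnfrsf21, against a common value of 42.7%. It was 56.7% for Tnfsf14 and 61.2% for Tnfrsf19, although each had over 100 counts in every library. It was 77.5% for Tnf and 161% for Tnfsf4, which had few counts.

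Single libraries set many of the extremes. SYT3 held the lowest value of 10 of the 32 tested genes (31.2%), against 14.4% of all tested genes: Cd40lg, Fas, Ltb, Tnfrsf14, Tnfrsf18, Tnfrsf1b, Tnfrsf21, Tnfrsf8, Tnfsf13 and Tnfsf14. SYT1 held the highest value of 6 (18.8%, against 8.65% of all tested genes) and YJT3 of 5 (15.6%, against 6.97%). SYT1 and SYT3 belong to the same group, and Tnfsf14, Ltb and Fas were highest in SYT1 and lowest in SYT3. SYT3 was the library with the low neutrophil score, and the part of that score in these values was not tested.

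**Figure D2:**
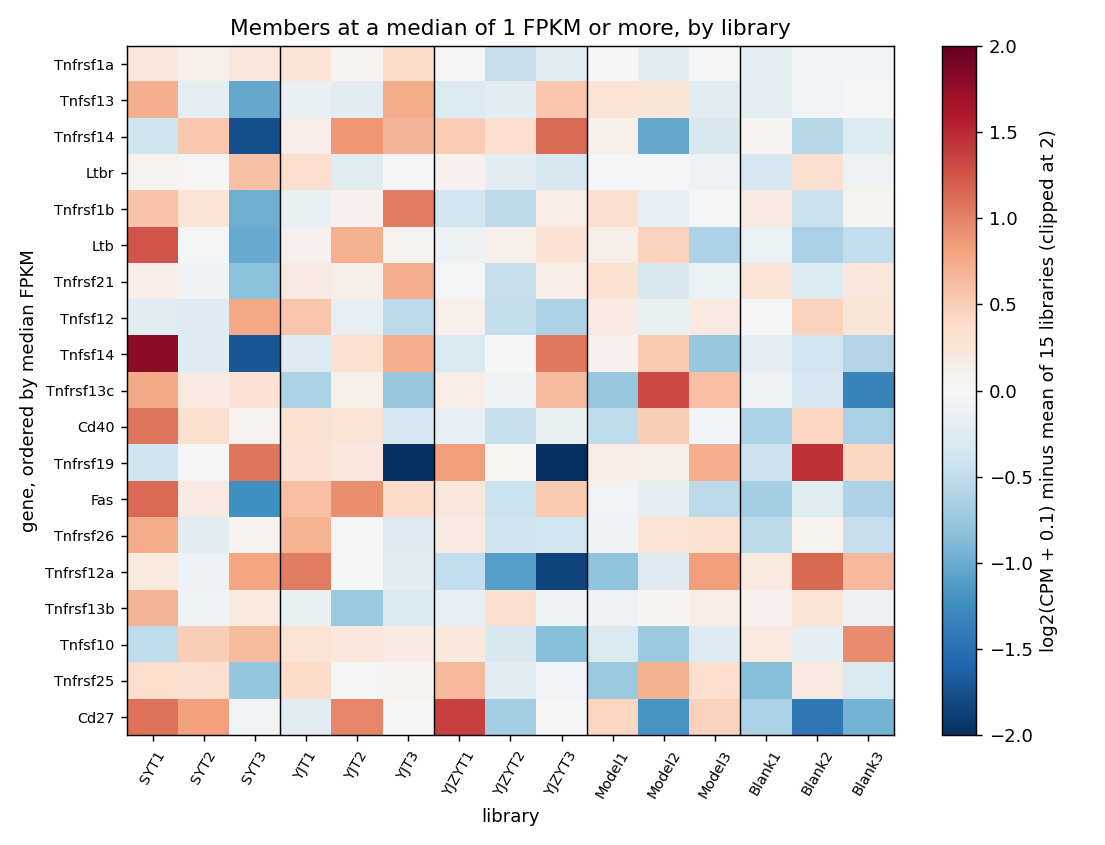
Heat map of log2(CPM + 0.1), as deviations from the mean of all 15 libraries and clipped at 2, for the 19 superfamily genes with a median of at least 1 FPKM, with libraries in columns by group. SYT3 is low for Tnfsf14, Tnfrsf14, Fas and Ltb, and YJT3 and YJZYT3 are low for Tnfrsf19.

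Levels in the 5 groups were first compared without choosing a pair. In the joint edgeR test of any difference among the groups, 0 of the 32 tested superfamily genes passed an adjusted p of 0.05, when 0.0227% of all tested genes (4 genes) did. At an unadjusted p under 0.05 there were 2 superfamily genes, Tnfrsf1a (edgeR adjusted p = 0.561) and Tnfrsf12a (edgeR adjusted p = 0.643), when 7.71% of all tested genes were under it. No superfamily gene passed in any of the 7 pairwise contrasts either, so the differences below are given as values and none is called.

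Ovariectomy was addressed by Model against Blank. The CD30 ligand Tnfsf8 and the BAFF receptor Tnfrsf13c had higher mean levels in Model, while TRAIL and the scarce GITR ligand had lower ones. Of the 32 genes, 0 passed the adjusted threshold (0.0227% of all tested genes did) and 4 had an unadjusted p under 0.05 (8.19% of all tested genes). Log2 fold changes were above 0 for 18 genes (51.7% of all tested genes), with a median of 0.14 over the 32, 0.34 over the ligands and -0.01 over the receptors, beside 0.02 over all tested genes. The groups did not overlap for 1 gene that was higher (7.69% of all tested genes) and for 2 that were lower (7.99%).

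Tnfsf8 measured 1.78, 0.969 and 2.05 CPM in Model and 0.766, 0.578 and 0.715 CPM in Blank. Every Model library was above every Blank library, with a log2 fold change of 1.22 (SE 0.49, edgeR adjusted p = 0.525). Tnfrsf13c measured 7.32, 31.1 and 18.9 CPM in Model and 11.6, 9.82 and 4.86 CPM in Blank, and the groups overlapped because Model1 was within the Blank range (log2 fold change 1.13, SE 0.46, edgeR adjusted p = 0.529). The log2 fold change was 0.58 without Model2. The 12 B cell markers all had log2 fold changes above 0 in the same contrast (median 0.52, 0 passed), and their summed level was 695 to 1620 CPM in Model and 694 to 930 CPM in Blank. Their part in the Tnfrsf13c values was not tested.

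Tnfsf10 measured 6.88, 4.99 and 6.99 CPM in Model and 9.67, 7.42 and 16.3 CPM in Blank. The groups did not overlap, although Model3 and Blank2 were close (log2 fold change -0.83, SE 0.36, edgeR adjusted p = 0.573), and the log2 fold change was -0.50 without Blank3. In FPKM the groups overlapped, with 1.72 in Model3 and 1.69 in Blank2. Tnfsf18 had 8, 0 and 9 counts in Model and 29, 44 and 69 in Blank, which gave a log2 fold change of -3.02 with a wide SE of 1.22 (edgeR adjusted p = 0.526).

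Of the other named genes in this contrast, Cd27 averaged 2.24 ± 1.17 CPM in Model and 1.04 ± 0.311 CPM in Blank (SD, n = 3 each, also for the means below; log2 fold change 1.10, SE 0.60, edgeR adjusted p = 0.703). Of the 13 T and NK cell markers, 10 were above 0 (median 0.51, 0 passed), Cd28 was at 0 in a library, and they summed to 121 to 156 CPM in Model and 115 to 132 CPM in Blank, which was not tested against Cd27 here. Tnfrsf12a averaged 4.64 ± 2.82 CPM in Model and 7.20 ± 2.42 CPM in Blank (log2 fold change -0.64), and the log2 fold change was -1.24 without Model3, -0.33 without Model1 and -0.35 without Blank2. The 9 skeletal muscle markers were all below 0 in this contrast (median -3.05, 0 passed). Of the 9 fibroblast and tendon markers 3 were above 0 (median -0.11, 0 passed). The part of both lists in the Tnfrsf12a values was not tested. Tnfrsf25 averaged 2.51 ± 1.19 CPM in Model and 1.77 ± 0.652 CPM in Blank (log2 fold change 0.51), and leaving out 1 library gave 0.16 (Model2), 0.22 (Blank1), 0.81 (Blank2) or 0.83 (Model1). Tnfrsf19 averaged 27.8 ± 6.94 CPM in Model and 35.0 ± 22.5 CPM in Blank, and its log2 fold change of -0.33 became 0.30 without Blank2. Tnfrsf1a was level, with means of 69.7 ± 5.35 CPM in Model and 69.0 ± 3.84 CPM in Blank.

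**Figure D3:**
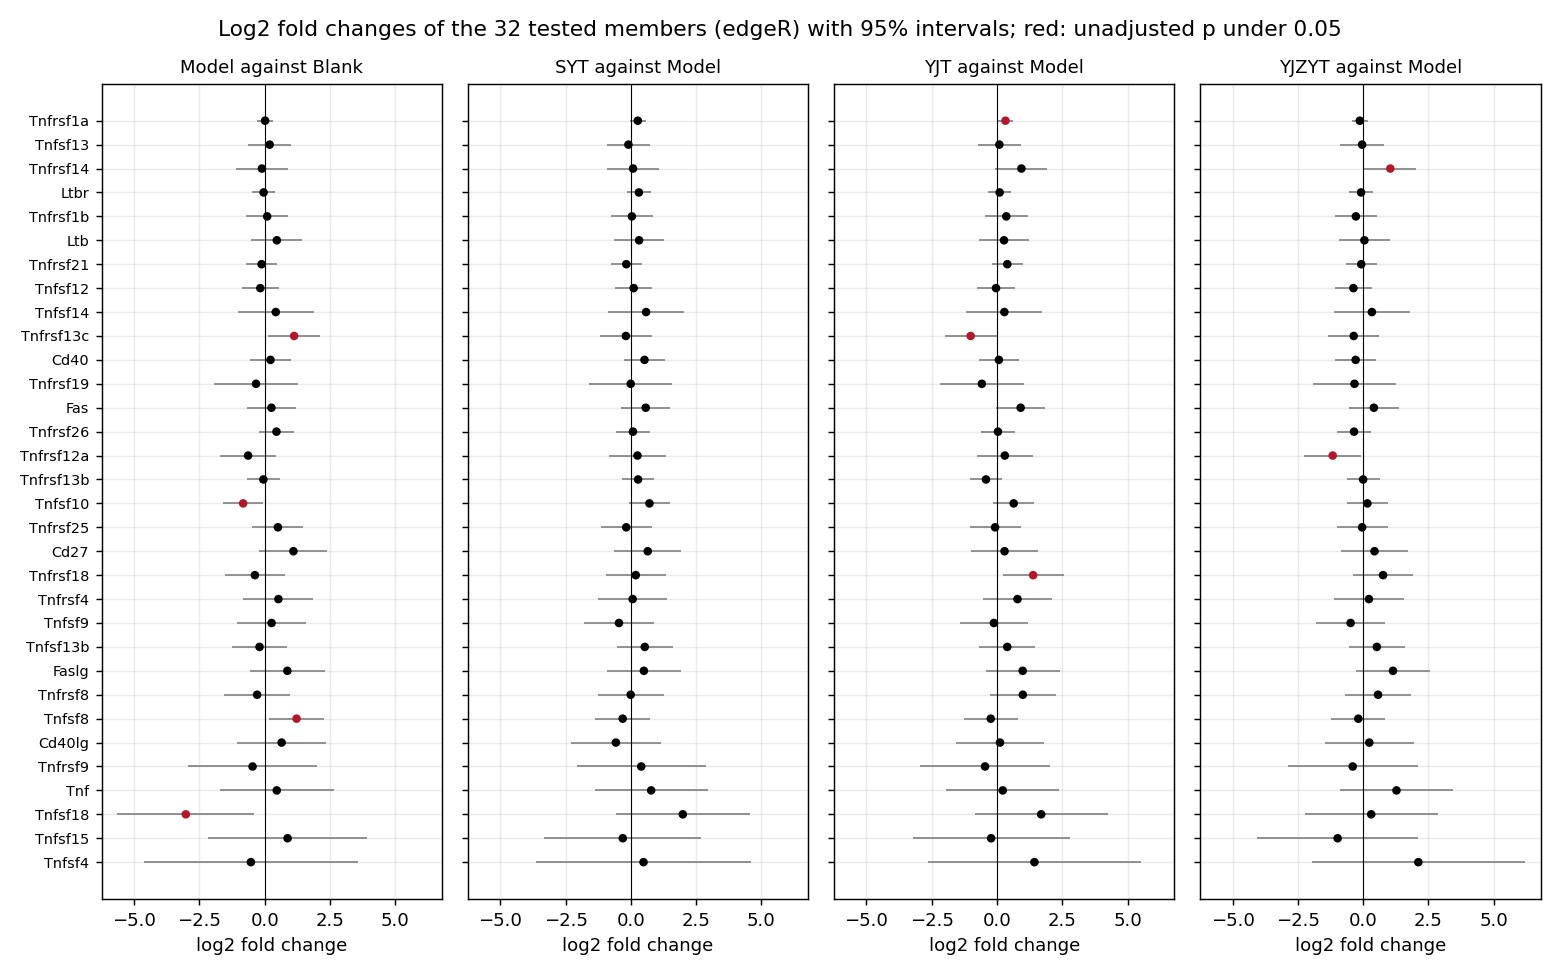
Log2 fold changes of the 32 tested superfamily genes with 95% confidence intervals from the edgeR fit, in 1 panel each for Model against Blank and for SYT, YJT and YJZYT against Model, with red points where the unadjusted p was under 0.05. Genes with few counts such as Tnfsf4 have wide intervals, and Tnfrsf1a has one of the narrowest, at 0.03 to 0.62 in YJT against Model.

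Treated groups were compared with Model, which all 3 comparisons share. For SYT, the family gave no member with an unadjusted p under 0.05. Tnfrsf1a and Ltbr lay above the whole Model range in TMM-scaled CPM but not in FPKM. In SYT1 they had 28.6 and 18.0 FPKM, beside 33.2 and 22.7 in Model1. Of the family, 0 of 32 genes passed (0.0% of all tested genes), and 0 had an unadjusted p under 0.05 (3.16%). The log2 fold change was above 0 for 22 genes (53.2% of all tested genes), with a median of 0.22 over the family and 0.02 over all tested genes. Without scaling factors it was above 0 for 16 genes, with a median of -0.02 over the family and -0.22 over all tested genes. The groups did not overlap for 3 higher genes (3.24% of all tested genes) and 0 lower ones (2.65%). The 3 were Tnfrsf1a, with means of 83.9 ± 4.26 CPM in SYT and 69.7 ± 5.35 CPM in Model, Ltbr, with 59.8 ± 13.4 CPM in SYT and 48.4 ± 1.15 CPM in Model, and the scarce Tnfsf18. The edgeR adjusted p was 1.0 for each. Their log2 fold changes were 0.27 for Tnfrsf1a and 0.31 for Ltbr, and without scaling factors 0.02 and 0.07.

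Tnfsf10 averaged 10.3 ± 3.88 CPM in SYT and 6.29 ± 1.13 CPM in Model (log2 fold change 0.71 with SE 0.36, adjusted p = 1.0 from edgeR). Cd27 averaged 3.50 ± 1.32 CPM in SYT and 2.24 ± 1.17 CPM in Model (log2 fold change 0.65, or 0.27 without Model2 and 0.38 without SYT1). Tnfsf14 showed how much 1 library weighed, with 23.1, 5.51 and 1.95 CPM in SYT against 7.02, 9.51 and 3.86 CPM in Model. Its log2 fold change of 0.58 (SE 0.68) became -0.89 without SYT1. Tnfrsf13c, Tnfrsf25 and Tnfrsf21 had log2 fold changes of -0.19, -0.18 and -0.17. The first became 0.35 without Model2, the second 0.17 without Model2 and 0.12 without SYT3, and the third 0.03 without Model1 and 0.06 without SYT3.

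In YJT the receptors Tnfrsf1a, Fas and Tnfrsf14 all lay above the whole Model range in TMM-scaled CPM, without passing the adjusted test. In FPKM only Fas still lay above that range. Tnfrsf1a had 27.0 FPKM in YJT2 and 33.2 in Model1, and Tnfrsf14 had 21.6 in YJT1 and 24.1 in Model1. Of 32 genes 0 passed (0.0% of all tested genes) and 3 had an unadjusted p under 0.05 (6.58%). The log2 fold change was above 0 for 23 genes (48.2% of all tested genes), with a median of 0.27 over the family and -0.02 over all tested genes. Groups did not overlap for 6 higher genes (6.83% of all tested genes), namely Tnfrsf1a, Tnfrsf14, Fas, Tnfsf10, Tnfrsf8 and Tnfrsf4, and for 1 lower gene (4.92%), Tnfrsf13b.

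Tnfrsf1a measured 89.7, 76.6 and 95.4 CPM in YJT and 73.8, 63.7 and 71.7 CPM in Model. The difference was small and the spread low, with a log2 fold change of 0.32 (SE 0.14, edgeR adjusted p = 0.746) that was 0.19 without scaling factors. Tnfrsf14 measured 52.5, 87.6 and 76.6 CPM in YJT and 51.5, 23.6 and 38.3 CPM in Model, so that YJT1 and Model1 almost met (log2 fold change 0.93, SE 0.46, edgeR adjusted p = 0.772). The 8 erythroid markers were all above 0 in this contrast (median 0.95, 0 passed), which was not tested against Tnfrsf14. Fas measured 18.9, 23.7 and 16.3 CPM in YJT and 11.9, 10.9 and 8.65 CPM in Model, with no overlap (log2 fold change 0.90, SE 0.44, edgeR adjusted p = 0.772).

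Tnfrsf18 measured 1.07, 1.3 and 4.28 CPM in YJT and 0.773, 1.17 and 0.608 CPM in Model. Only YJT3 was far above Model, and the log2 fold change of 1.38 (SE 0.54, edgeR adjusted p = 0.746) was 0.48 without it. Tnfrsf13c measured 7.93, 13.3 and 7.31 CPM in YJT and 7.32, 31.1 and 18.9 CPM in Model, with a log2 fold change of -1.01 (SE 0.46, edgeR adjusted p = 0.757). It was -0.47 without Model2. The 12 B cell markers were all below 0 in this contrast, with a median of -0.69 and none passing, and summed to 476 to 819 CPM in YJT and 695 to 1620 CPM in Model. Their part in the Tnfrsf13c and Tnfrsf13b values was not tested.

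Tnfrsf13b averaged 1.74 ± 0.377 CPM in YJT and 2.33 ± 0.211 CPM in Model (log2 fold change -0.42, edgeR adjusted p = 0.813, or -0.26 without YJT2). Tnfrsf19 averaged 18.6 ± 12.7 CPM in YJT and 27.8 ± 6.94 CPM in Model (log2 fold change -0.58), with YJT3 alone at 3.98 CPM. Without YJT3 the log2 fold change was -0.10, and without Model3 it was -0.36. The 11 osteoblast and osteocyte markers were all below 0 in the same contrast, with a median of -0.92.

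In YJZYT the receptor of LIGHT, Tnfrsf14, lay above Model and the receptor of TWEAK, Tnfrsf12a, was lower on average. Of 32 genes 0 passed (0.0% of all tested genes) and 2 had an unadjusted p under 0.05 (7.29%). The log2 fold change was above 0 for 15 genes (42.3% of all tested genes), with a median of -0.02 over the family and -0.07 over all tested genes. Groups did not overlap for 5 higher genes (7.35% of all tested genes), namely Tnfrsf14, Faslg, Tnfrsf18, Tnfsf4 and Tnfrsf8, and for 0 lower genes (5.57%).

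Tnfrsf14 measured 67.9, 60.5 and 105 CPM in YJZYT and 51.5, 23.6 and 38.3 CPM in Model. Every YJZYT library was above every Model library, with a log2 fold change of 1.04 (SE 0.46, edgeR adjusted p = 0.666) that lay between 0.76 and 1.33 with 1 library left out at a time. Tnfrsf12a measured 3.08, 1.98 and 1.13 CPM in YJZYT and 2.44, 3.64 and 7.82 CPM in Model. YJZYT1 was above Model1, so the groups overlapped, and the log2 fold change of -1.17 (SE 0.51, edgeR adjusted p = 0.660) was -0.56 without Model3. Of the 9 skeletal muscle markers 1 was above 0 in this contrast (median -0.73, 0 passed). The 9 fibroblast and tendon markers were all below 0 (median -1.01, 0 passed). Neither list was tested against Tnfrsf12a in this contrast.

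Fas averaged 13.9 ± 4.45 CPM in YJZYT and 10.5 ± 1.67 CPM in Model (log2 fold change 0.41, or 0.18 without YJZYT3 and 0.64 without YJZYT2). Tnfsf12 averaged 11.5 ± 3.31 CPM in YJZYT and 14.9 ± 1.89 CPM in Model (log2 fold change -0.37, or -0.23 without YJZYT3 and -0.63 without YJZYT1). The log2 fold change of Cd27 was 0.43, and it was -0.39 without YJZYT1, the library with the most Cd27 (5.66 CPM). That of Tnfrsf13c was -0.36, and 0.18 without Model2.

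**Figure D4:**
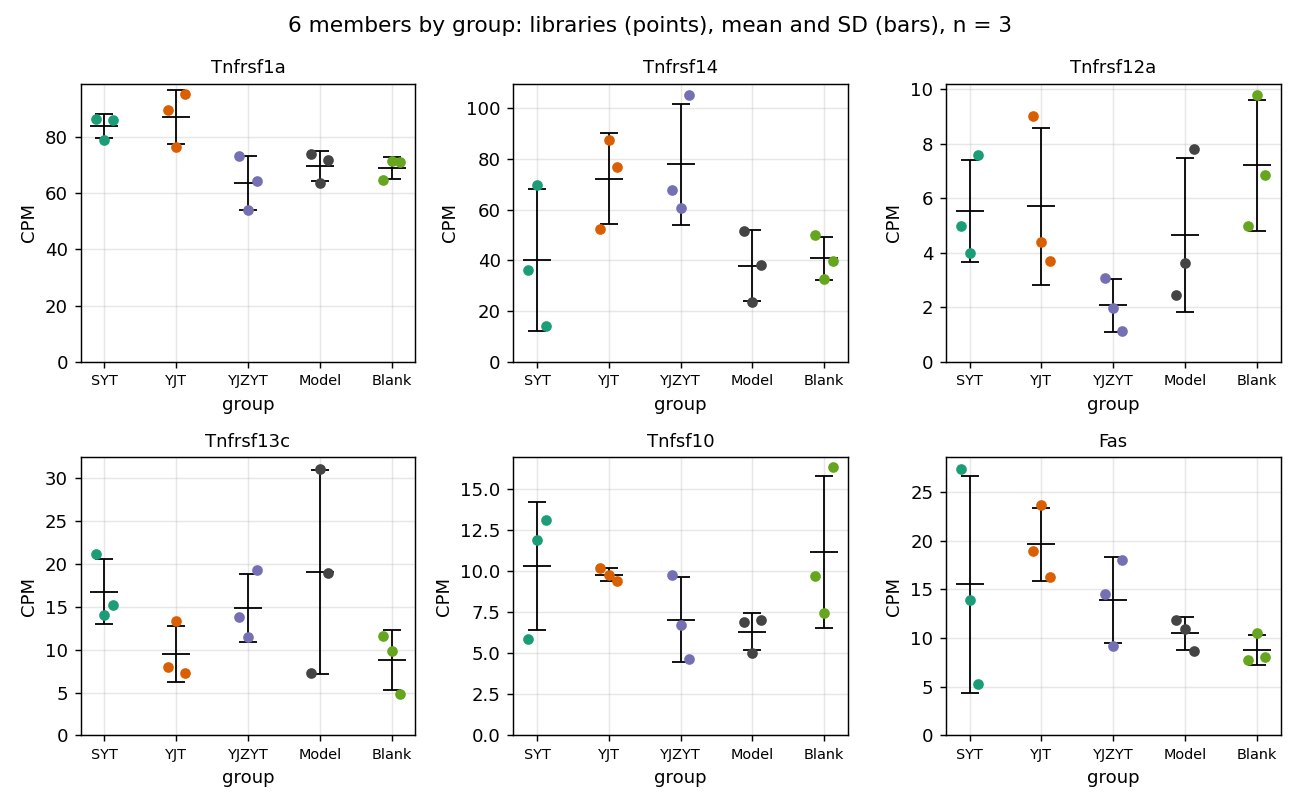
CPM of Tnfrsf1a, Tnfrsf14, Tnfrsf12a, Tnfrsf13c, Tnfsf10 and Fas in each library, by group in the order SYT, YJT, YJZYT, Model and Blank, with a horizontal line at each group mean and error lines of 1 SD (n = 3). In TMM-scaled CPM, Tnfrsf1a lies at 76.6 or more in all SYT and YJT libraries and at 73.8 or less in all others. In FPKM the libraries overlap, with 28.6 in SYT1 and 27.0 in YJT2 beside 33.2 in Model1.

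The treated groups were also set against each other, and here Tnfrsf1a and Tnfrsf12a were lower in YJZYT than in both SYT and YJT, in comparisons that share the YJZYT libraries. In YJZYT against YJT, 0 of 32 genes passed (0.0% of all tested genes) and 2 had an unadjusted p under 0.05 (6.39%). The groups did not overlap for 0 higher genes (3.7%) and for these 2 lower ones (7.59%), and 14 log2 fold changes were above 0 (49.1% of all tested genes).

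Tnfrsf1a measured 73.1, 53.9 and 64.2 CPM in YJZYT and 89.7, 76.6 and 95.4 CPM in YJT. YJZYT1 came close to YJT2 but did not reach it, and the log2 fold change was -0.45 (SE 0.14, 95% interval -0.75 to -0.15, edgeR adjusted p = 0.318). Without scaling factors it was -0.465. In FPKM the groups overlapped, with 30.1 in YJZYT1 and 27.0 in YJT2. Tnfrsf12a measured 3.08, 1.98 and 1.13 CPM in YJZYT and 9.01, 4.38 and 3.71 CPM in YJT, without overlap (log2 fold change -1.46, SE 0.51, edgeR adjusted p = 0.463, or -0.97 without YJT1). The 9 skeletal muscle markers were all below 0 in this contrast (median -2.84, 0 passed). Of the 9 fibroblast and tendon markers 1 was above 0 (median -0.94, 0 passed). The part of both lists in the Tnfrsf12a values was not tested. Other named log2 fold changes were -0.63 for Tnfrsf1b (35.3 ± 9.09 CPM in YJZYT and 54.8 ± 25.3 CPM in YJT), 0.65 for Tnfrsf13c, 0.42 for Tnfrsf13b, 0.25 for Tnfrsf19 and -0.62 for Tnfrsf18. Without YJT3 that of Tnfrsf1b was -0.19. That of Tnfrsf13c was 0.41 without YJZYT3, and that of Tnfrsf13b was 0.26 without YJT2 and 0.25 without YJZYT2. Leaving out 1 library moved that of Tnfrsf19 to 0.72 (YJZYT3), -0.44 (YJZYT1) or -0.23 (YJT3), and that of Tnfrsf18 to 0.28 without YJT3.

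In YJZYT against SYT, 0 of 32 genes passed (0.0% of all tested genes) and 3 had an unadjusted p under 0.05 (9.1%). Groups did not overlap for 3 higher genes (5.14%) and 4 lower ones (6.56%), and 12 log2 fold changes were above 0 (45.6%). The higher ones were Tnfsf4, Faslg and Tnfrsf18, and the lower ones Tnfrsf1a, Tnfrsf12a, Cd40 and Tnfsf18. Faslg averaged 1.07 ± 0.0718 CPM in YJZYT and 0.684 ± 0.286 CPM in SYT, and Tnfrsf18 averaged 1.44 ± 0.0938 CPM in YJZYT and 0.967 ± 0.365 CPM in SYT. The scarce Tnfsf4 and Tnfsf18 averaged under 1 CPM in both groups. Tnfrsf1a measured 86.5, 79.0 and 86.1 CPM in SYT, all above its 3 YJZYT values given before (log2 fold change -0.40, SE 0.14, edgeR adjusted p = 0.440). Without scaling factors its log2 fold change was -0.29. In FPKM its groups overlapped, with 30.1 in YJZYT1 and 28.6 in SYT1. Tnfrsf12a averaged 2.06 ± 0.975 CPM in YJZYT and 5.53 ± 1.86 CPM in SYT (log2 fold change -1.42, SE 0.51, edgeR adjusted p = 0.465), again without overlap. All 9 muscle markers were below 0 here too (median -2.85, 0 passed), as were all 9 fibroblast and tendon markers (median -1.12, 0 passed). Neither list was tested against these values.

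Cd40, the B cell and macrophage receptor of CD40 ligand, measured 8.48, 6.89 and 8.54 CPM in YJZYT and 20.1, 11.9 and 10 CPM in SYT (log2 fold change -0.81, SE 0.36, edgeR adjusted p = 0.547). SYT1 was far above the rest, the groups did not overlap, and the log2 fold change was -0.44 without SYT1. Tnfrsf14 averaged 77.7 ± 23.7 CPM in YJZYT and 40.1 ± 28 CPM in SYT (log2 fold change 0.95, or 0.55 without SYT3 and 1.62 without SYT2). The 8 erythroid markers were all above 0 here (median 0.66, 0 passed), which was not tested against Tnfrsf14. Tnfsf10 averaged 7.03 ± 2.57 CPM in YJZYT and 10.3 ± 3.88 CPM in SYT (log2 fold change -0.55, or -0.32 without YJZYT3, -0.34 without SYT3 and -0.86 without YJZYT1). Tnfrsf21 and Tnfrsf25 had log2 fold changes of 0.10 and 0.14, and neither direction was stable. That of Tnfrsf21 was -0.13 without SYT3 and -0.034 without YJZYT3, and that of Tnfrsf25 was -0.16 without SYT3 and -0.19 without YJZYT1.

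In YJT against SYT, 0 of 32 genes passed (0.0% of all tested genes), 2 had an unadjusted p under 0.05 (3.05%), 1 was higher without overlap (3.36%), 2 were lower without overlap (3.14%) and 17 were above 0 (48.6%). The higher one was Tnfrsf8, with means of 1.61 ± 0.336 CPM in YJT and 0.806 ± 0.58 CPM in SYT, and the lower ones were Tnfrsf13b and Tnfrsf13c. Tnfrsf13b measured 2.05, 1.32 and 1.84 CPM in YJT and 3.70, 2.16 and 2.60 CPM in SYT (log2 fold change -0.70, SE 0.29, edgeR adjusted p = 0.931). All YJT libraries were below all SYT libraries, and without SYT1 the log2 fold change was -0.45. Tnfrsf18 averaged 2.21 ± 1.79 CPM in YJT and 0.967 ± 0.365 CPM in SYT (log2 fold change 1.20, edgeR adjusted p = 0.931), and the log2 fold change was 0.29 without YJT3. The log2 fold changes of Tnfrsf14, Tnfrsf21, Tnfrsf13c and Tnfrsf19 were 0.85, 0.57, -0.82 and -0.57, with that of Tnfrsf14 at 0.44 without SYT3 and 1.52 without SYT2. That of Tnfrsf19 was -0.013 without SYT3 and -0.096 without YJT3. That of Tnfrsf21 was 0.34 without SYT3 and 0.35 without YJT3. The 11 osteoblast and osteocyte markers were all below 0 in this contrast (median -1.37, 0 passed), as were the 12 B cell markers (median -0.27, 0 passed). Of the 8 erythroid markers 7 were above 0 (median 0.34, 0 passed). The part of these lists in the Tnfrsf19, Tnfrsf13b, Tnfrsf13c and Tnfrsf14 values was not tested.

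Genes that act downstream of these receptors were read from 4 lists with 57 genes: 24 adaptors and proximal kinases, 8 genes of the NF-kappaB core, 18 NF-kappaB inhibitors and feedback targets and 7 genes of TNF shedding. None passed the adjusted edgeR test in any contrast. At an unadjusted p under 0.05 there were 7 of the 57 in Model against Blank (12.3%, against 8.19% of all tested genes). Against Model there was 1 in SYT (1.75%, against 3.16%), and there were 3 in YJT (5.26%, against 6.58%) and 3 in YJZYT (5.26%, against 7.29%). The contrasts between treated groups had 1 to 3 each (1.75% to 5.26%, against 3.05% to 9.1% of all tested genes). In Model against Blank, 17 of 24 adaptors and 7 of 8 core genes were above 0, as were 51.7% of all tested genes, with medians of 0.13 and 0.09 beside 0.02 over all tested genes. The feedback targets were above 0 for 8 of 18 with a median of -0.10, and the shedding genes for 4 of 7 with a median of 0.08.

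Within the lists, Traf4, a TRAF adaptor, averaged 30.7 ± 15.3 CPM in Model and 13.9 ± 2.18 CPM in Blank, without overlap (log2 fold change 1.15, SE 0.32, edgeR adjusted p = 0.332). Map3k14, the kinase NIK of the non-canonical NF-kappaB route, averaged 12.1 ± 2.78 CPM in Model and 7.39 ± 1.54 CPM in Blank (log2 fold change 0.71, edgeR adjusted p = 0.448). Nfkb2, whose product NIK signalling converts to p52, averaged 33.6 ± 4.55 CPM in Model and 26.5 ± 1.99 CPM in Blank (log2 fold change 0.34, edgeR adjusted p = 0.573). Among the inhibitors and feedback targets, Nfkbia, which encodes IkappaB alpha, averaged 54.8 ± 7.5 CPM in Model and 82.6 ± 8.24 CPM in Blank (log2 fold change -0.59, edgeR adjusted p = 0.557). Vcam1 averaged 68.0 ± 12.7 CPM in Model and 144 ± 68.9 CPM in Blank, with overlap (log2 fold change -1.09, SE 0.47, edgeR adjusted p = 0.559). Tnfaip3, which encodes the ubiquitin-editing inhibitor A20, averaged 10.5 ± 1.14 CPM in Model and 14.8 ± 1.96 CPM in Blank (log2 fold change -0.50, edgeR adjusted p = 0.573). Rhbdf2, which encodes iRhom2, a partner of the TNF-shedding protease ADAM17, averaged 37.2 ± 3.22 CPM in Model and 23.5 ± 1.86 CPM in Blank, without overlap (log2 fold change 0.66, edgeR adjusted p = 0.407).

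Against Model, Nfkb2 averaged 28.9 ± 2.59 CPM in SYT, 24.6 ± 2.11 CPM in YJT and 22.4 ± 2.93 CPM in YJZYT, beside 33.6 ± 4.55 CPM in Model. All YJT and all YJZYT libraries were below all Model libraries, with log2 fold changes of -0.45 (SE 0.15, edgeR adjusted p = 0.746) in YJT and -0.58 (SE 0.15, edgeR adjusted p = 0.638) in YJZYT. In SYT it was -0.22. Tnfaip6, which encodes the hyaluronan-binding protein TSG-6, averaged 0.482 ± 0.217 CPM in YJZYT and 1.47 ± 0.478 CPM in Model (log2 fold change -1.60 with SE 0.60, adjusted p = 0.638 from edgeR). Fadd, the adaptor of Fas, averaged 17.4 ± 1.24 CPM in SYT and 22.2 ± 1.23 CPM in Model (log2 fold change -0.36, edgeR adjusted p = 1.0). Medians of the core list were -0.07 in SYT, -0.06 in YJT and -0.11 in YJZYT, each against Model, beside 0.02, -0.02 and -0.07 over all tested genes. In the same order, the inhibitors and feedback targets had medians of -0.05, -0.19 and -0.26. Of these 18 genes 6, 7 and 5 were above 0, as were 53.2%, 48.2% and 42.3% of all tested genes. The adaptors had medians of -0.035, -0.048 and -0.086, and the shedding genes 0.13, -0.03 and 0.10.

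Several family members are known from particular cell types, and 9 pairs of a gene and a marker list were compared across the 15 libraries. The permutations shuffled all 15 libraries without regard to group. Their p-values therefore do not separate co-variation between groups from that within groups. The closest relation was that of Tnfrsf19, a receptor of mesenchymal progenitors, with the score of the osteoblast and osteocyte list, at Pearson's r = 0.94 (permutation p = 1e-05, the smallest that 100000 permutations can give, adjusted p over the 9 pairs 9e-05) and Spearman's rho = 0.86 (permutation p = 8e-05, adjusted 0.00072). It was 0.80 without YJT3 and YJZYT3, the 2 libraries farthest from the median score. It was 0.96 for the deviations from group means, as close as over all libraries. These deviations still included YJT3 and YJZYT3, and r within groups was not computed without them.

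Cd27 and the T and NK cell score gave r = 0.67 (permutation p = 0.00747, adjusted 0.0199) and rho = 0.66 (permutation p = 0.00823, adjusted 0.037), with r = 0.61 without Blank1 and SYT1 and 0.68 within groups. Tnfrsf13c and the B cell score gave r = 0.66 (permutation p = 0.00855, adjusted 0.0199) and rho = 0.57 (permutation p = 0.0277, adjusted 0.0416). That relation had r = 0.41 without Model2 and YJT3 and was 0.63 within groups, so part of it rested on those 2 libraries. Tnfrsf12a and the skeletal muscle score gave r = 0.65 (permutation p = 0.00884, adjusted 0.0199) and rho = 0.61 (permutation p = 0.0177, adjusted 0.0398), but r = 0.44 without YJZYT2 and YJZYT3 and only 0.14 for the deviations from group means. The co-variation of this pair was thus mostly between groups, which its permutation p-values do not take into account. Tnfrsf12a was not compared with the fibroblast and tendon score.

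**Figure D5:**
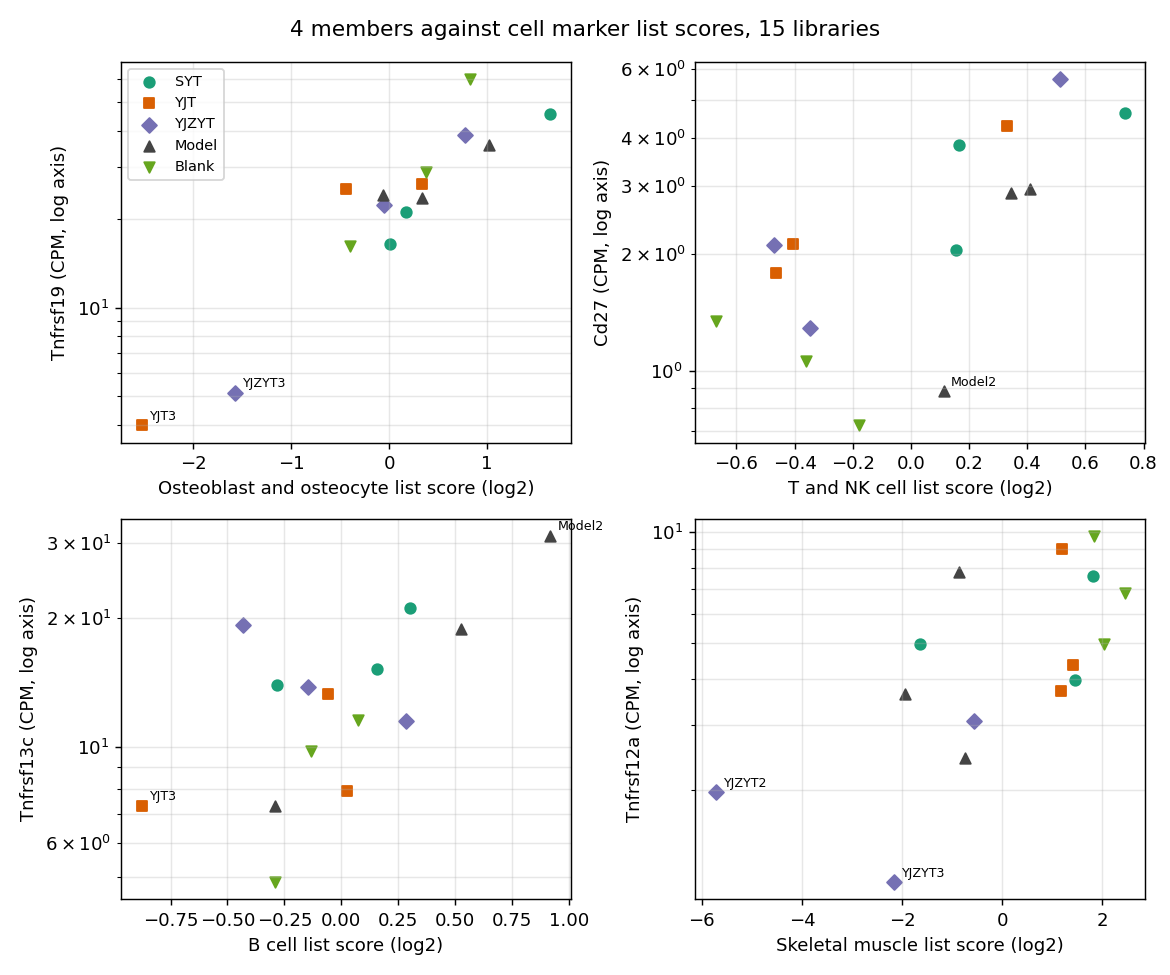
CPM on a log axis of Tnfrsf19, Cd27, Tnfrsf13c and Tnfrsf12a against the score (log2) of the osteoblast, T and NK cell, B cell and skeletal muscle list, with 1 point per library coloured by group. The points of Tnfrsf19 follow the score closely (r = 0.94), with YJT3 and YJZYT3 at the low end.

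For the other 5 pairs Pearson's r over all 15 libraries was nearer to 0, though not every other measure was. Tnfrsf13b and the B cell score gave r = 0.45 (permutation p = 0.0937, adjusted 0.141) and rho = 0.62 (permutation p = 0.0148, adjusted 0.0398), and r = 0.51 without the 2 farthest libraries and 0.40 within groups. Tnfrsf1b and the monocyte and macrophage score were inversely related, at r = -0.46 (permutation p = 0.0866, adjusted 0.141) and rho = -0.58 (permutation p = 0.0254, adjusted 0.0416), with r = -0.61 without YJT2 and YJZYT3 and -0.54 within groups. Values near 0 were found for Ltb with the B cell score (r = 0.10, rho = 0.07), for Cd40lg with the T and NK cell score (r = -0.11, rho = -0.07) or for Tnfsf13b with the monocyte and macrophage score (r = 0.06, rho = 0.05), with permutation p-values of r of 0.719, 0.686 and 0.84. All libraries share their depth and composition between the gene and the list, so these values describe co-variation in bulk tissue.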

How the data were processed

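Bone RNA of 15 libraries was measured. Per the labels' protocols, poly(A) RNA was selected, second strands were marked with dUTP, and adapters carried unique molecular identifiers. Listed without roles in the submitters' processing notes are StringTie 1.3.4d, HISAT2 2.0.4, cutadapt 1.9, UMI-tools, edgeR and DESeq2. Build, annotation, counting step and strand setting: not given in the sources used here. The deposited table gives, per the file headers, a count and an FPKM value per gene and library, and the authors' FPKM values were used unchanged. A deposited count of 4 occurred 5143 times, against 3519 times for 3 and 2314 times for 5, so single low counts are read with care.

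With edgeR 4.0.16 in R 4.3.3, counts passing filterByExpr were TMM-scaled, and the 15 libraries entered a single robust quasi-likelihood fit (10 residual degrees of freedom, BCV 42.7%, median prior degrees of freedom 3.05). The 7 contrasts and the joint test were two-sided, adjusted by Benjamini-Hochberg over 17657 genes, with a threshold of 0.05. The SE is the fold change over the root of F. List scores use log2 CPM with a prior count of 2. Named were all members with an unadjusted p under 0.05 and, among those reaching a group mean of 1 FPKM, the 3 largest fold changes each way. Non-overlapping members and list examples were also named. The members and lists were chosen with earlier results of these data known. The scripts were tested on simulated data. Alternatives were RLE size factors, no scaling, DESeq2 1.42.0, no filter, genes reaching 1 FPKM on average, limma 3.58.1 on log2(FPKM + 0.1) and log2(FPKM + 1), fits of the 6 compared libraries, a replicate block, and leaving out each library. Leaving out both YJT3 and YJZYT3 was chosen after seeing the data.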

Additional observations from a re-analysis of the deposited data

How the results depend on the processing

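In all 136 alternative counts the number of superfamily genes past an adjusted p of 0.05 was 0, as reported. The smallest adjusted p of a member was 0.0598, for Tnfrsf1a in YJZYT against YJT with DESeq2, and its adjusted p over the other settings ran from 0.146 to 1.0. DESeq2 called 388 genes in all in that contrast, and limma on log2(FPKM + 1) called 101. The labels link libraries of different groups only by replicate number, and whether they share anything else is not known. Same-numbered deviations correlated at -0.418 to 0.4, with every pair over 0.1 in 0 contrasts. With the replicate block 0 members passed in any contrast. Without scaling factors the median of all tested genes moved to -0.22 in SYT, -0.16 in YJT and -0.22 in YJZYT against Model. The count of members above 0 was then 16, 19 and 14, and none of the named directions turned.

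Of 743 alternative log2 fold changes of named members, 723 kept their direction and 20 turned it. In SYT against Model, Tnfsf14 was -0.26 with limma on log2(FPKM + 0.1) and -0.17 on log2(FPKM + 1). Without both YJT3 and YJZYT3, Tnfrsf21 was -0.034 in YJZYT against SYT and Tnfrsf18 was 0.23 in YJZYT against YJT. With 1 library left out at a time, Tnfrsf19 ran from -0.73 to 0.30 in Model against Blank and from -0.44 to 0.72 in YJZYT against YJT. In SYT against Model the ranges were -0.58 to 0.35 for Tnfrsf13c, -0.39 to 0.058 for Tnfrsf21, -0.50 to 0.17 for Tnfrsf25 and -0.89 to 1.07 for Tnfsf14. In YJZYT against Model they were -0.39 to 0.80 for Cd27 and -0.75 to 0.18 for Tnfrsf13c. In YJZYT against SYT they were -0.13 to 0.32 for Tnfrsf21 and -0.19 to 0.34 for Tnfrsf25, and in YJZYT against YJT -0.95 to 0.28 for Tnfrsf18. The causes were not tested. Depth limits Tnf, Lta, Cd70, Tnfsf4, Tnfsf15 and Tnfsf18, and 3 libraries a group limit the rest.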
